A study of Drosophila melanogaster with 24 samples.

Results

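MicroRNAs of body tissue were compared between old and young fruit flies (Drosophila melanogaster) by small RNA sequencing. The comparison took all 12 body tissue libraries among the 24 of the study, which also sampled hemolymph, the circulating fluid of the fly. The old group held 8 libraries of flies aged 25 days and the young group 4 libraries of flies aged 2 days, and every library is labelled male. No strain, genotype, diet or treatment is given in the labels. The old libraries numbered 1 to 4 carry the letter O in their codes and those numbered 5 to 8 the letter R, and no label says what the letters stand for. No label states that the libraries are separate flies or pools of flies either, so a p-value here speaks to the scatter among libraries, part of which may be technical. All 466 mature microRNAs listed were taken, of which 299 had at least 1 count in a body library and 115 had enough counts to be tested. Each body library held between 136692 and 242935 microRNA counts. Levels are given in CPM, the count scaled to a fixed total of microRNA counts in each library.

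A microRNA is cut from a hairpin precursor by Drosha and Dicer, and either arm of the hairpin (5p or 3p) can be loaded into an Argonaute protein, where it guides repression of messenger RNAs that match its seed. Neighbouring hairpins are often cut from 1 primary transcript, so their products share transcription but can differ in processing and in stability. In flies several microRNAs are known from particular tissues, such as miR-1 from muscle, miR-124 from neurons and miR-318 from the follicle cells of the ovary. In bulk tissue, fewer cells of a type and less of a microRNA in each cell cannot be told apart.

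The 4 young libraries were not alike. The ovarian microRNA miR-318-3p stood at 64.0, 6659.9, 68137 and 54850.1 CPM in young libraries 1 to 4, and its neighbour miR-994-5p at 69.4, 2975, 8597 and 10060.3 CPM. In the 8 old libraries these microRNAs lay from 14315 to 27895 (median 20522) CPM and from 1388 to 2874 (median 2150.5) CPM. For miR-318-3p young libraries 1 and 2 lay below every old library, and libraries 3 and 4 above every one. miR-312-3p of the miR-310 cluster was at 1265, 6332, 46579.8 and 48597 CPM in the young and from 17089.5 to 26150.4 (median 21404) CPM in the old libraries, with the same split. The 8 microRNAs listed as ovarian or early embryonic together took 0.257%, 1.50%, 8.04% and 6.92% of counts in the young libraries, and 1.98% to 3.58% (median 2.60%) in the old ones. The corresponding share of the 6 miR-310 and miR-92 family members was 0.362%, 1.20%, 7.16% and 7.71% in the young, and 3.46% to 5.43% (median 4.41%) in the old libraries. The third ovarian microRNA tested, miR-989-3p, known for border cell migration, did not follow, at 2418, 5322, 3542 and 4236 CPM in the young libraries and from 2921 to 5018 (median 3861) in the old. The 20 testis cluster microRNAs were near 0 at both ages, with a share of 0.0103% in young and 0.0185% in old libraries on average, and none could be tested. All libraries are labelled male, a label at odds with the high miR-318-3p of every old library and the near absence of testis microRNAs. The reason was not tested. Leaving out the ovarian and miR-310 family microRNAs gave 22 rises and 36 falls of 108 tested. That fit removes only their own counts, and the part of these ovarian levels in any age difference was not tested. None of the 3 tested ovarian microRNAs was called over all libraries. The scarce other arm of mir-994, miR-994-3p, is not in the list and was called as a fall (-1.39 ± 0.54, adjusted p = 0.0495). It had 1 to 44 counts per library, and its call was lost in 9 of the fits that left out 1 library. The value of miR-318-3p was -0.56 ± 0.85, and it was -1.51 without young libraries 1 and 2 and 2.52 without young libraries 3 and 4.

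**Figure D1:**
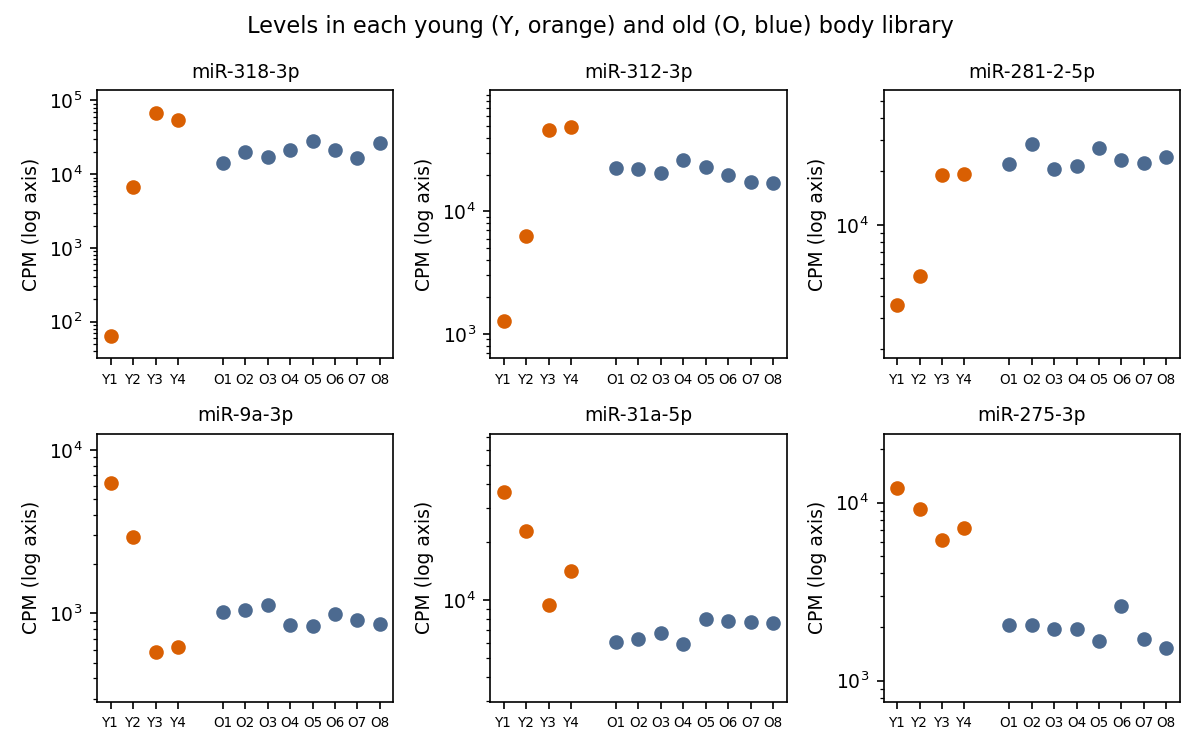
Level of 6 microRNAs in CPM (log axis) in each of the 4 young (Y1 to Y4, orange) and 8 old (O1 to O8, blue) body libraries, 1 point per library. Y1 and Y2 lie below Y3 and Y4 for miR-318-3p, miR-312-3p and miR-281-2-5p and above them for miR-9a-3p, miR-31a-5p and miR-275-3p, while the old libraries stay close together.

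With age 22 of 115 tested microRNAs rose (19.1%) and 34 fell (29.6%), so that 48.7% changed at an adjusted p below 0.05 in edgeR's quasi-likelihood test with Benjamini-Hochberg adjustment. That test takes 1 spread per microRNA for both ages, although the young libraries spread more (median SD of log2(CPM + 1) 0.481 against 0.212). A limma fit weighted by sample gave 21 rises and 14 falls, and 33 of the 56 calls were also made there in the same direction. The 34 falls count miR-276a-5p and miR-276b-5p separately, although their counts were the same in every library. The CPM of young and old libraries did not overlap for 35 microRNAs (30.4%), of which 16 rose and 19 fell. The called microRNAs carried much of the library. The 22 that rose took 20.3% ± 4.39 of counts in the young libraries (SD, n = 4) and 32.1% ± 1.16 in the old (n = 8). The 34 that fell took 21.4% ± 6.90 in the young and 11.9% ± 0.563 in the old. Both sets were picked by their change in these same counts, so the direction of these shifts was given in advance. The median log2 fold change of all tested microRNAs was -0.20, and under upper-quartile scaling, which moved it to -0.32, 13 rose and 35 fell. Without young libraries 1 and 2, 35 rose and 30 fell of 120, and without young libraries 3 and 4, 31 rose and 49 fell of 124. The median log2 fold change of all tested was 0.02 in the former fit and -0.17 in the latter. An upward move of a value without young libraries 1 and 2 is thus partly shared by the tested microRNAs as a whole. Counts for groups of microRNAs in these fits are to be read against these totals. In the full set and in both of these fits 17 microRNAs rose each time and 19 fell each time. Leaving out old library 1 alone lowered the number of rises to 14.

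Among the named microRNAs, miR-282-5p had the largest fall. It stood at 16614, 7059.5, 1442 and 1762 CPM in the young libraries and from 245 to 358 (median 326) CPM in the old ones, without overlap. Its log2 fold change was -4.59 ± 0.55 (SE, adjusted p = 5.9e-05), and without young libraries 1 and 2 it was -2.29. Every young library was above every old one, although the young libraries themselves spread widely, with library 1 highest and library 3 lowest. The hairpin lies on chromosome 3L from 3251022 to 3251118 on the plus strand of dm6, where a noncoding RNA exon is annotated. miR-275-3p, known in mosquitoes for a role in digestion, was at 12157, 9169, 6148 and 7241 CPM in the young and from 1522 to 2630.3 (median 1941) in the old libraries. The old libraries all lay below the young ones, with a log2 fold change of -2.25 ± 0.21 (adjusted p = 1.2e-05), or -1.73 without young libraries 1 and 2. miR-277-3p, known from the breakdown of branched-chain amino acids, was at 25873, 16589, 16982 and 18235 CPM in the young and from 7199 to 9637 (median 8446) in the old libraries. Its log2 fold change was -1.28 ± 0.16 (adjusted p = 7.7e-05), and its young libraries were nearer to each other than those of miR-282-5p.

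The muscle and neural microRNAs gave further falls. miR-1-3p, which acts in muscle growth and maintenance, was at 2775, 2176, 1280.2 and 1280.2 CPM in the young and from 574 to 889 (median 742) in the old libraries, without overlap, and changed by -1.44 ± 0.26 (adjusted p = 0.000639). Of the 3 tested muscle microRNAs it was the only one called, with miR-133-3p at -0.41 ± 0.18 and the flight muscle regulator miR-9a-5p at -0.75 ± 0.34, and the median of the list was -0.75. Without young libraries 1 and 2 miR-1-3p alone fell and the list median was 0.02, with miR-133-3p at 0.02 and miR-9a-5p at 0.26, whereas without young libraries 3 and 4 all 3 fell (median -1.27). Of 12 tested head and nervous system microRNAs 8 fell and 2 rose, with a median of -0.82, against 29.6% falling and 19.1% rising among all tested. miR-987-5p was at 3159, 2592, 1073 and 1247 CPM in the young and from 709.9 to 979 (median 778) in the old libraries. The groups did not overlap, and it changed by -1.41 ± 0.29 (adjusted p = 0.00154). miR-276a-3p, known from dopamine receptor control in olfactory memory, was at 77775, 58352, 41069 and 48079 CPM in the young and from 29051 to 35934 (median 30317) in the old libraries, and changed by -0.91 ± 0.19 (adjusted p = 0.00140). Its paralog miR-276b-3p changed by -1.04 ± 0.17 at lower levels. Other falls of the list were miR-932-5p, within an intron of Nlg2, a neuroligin gene of synapses (-1.10 ± 0.29), miR-957-3p (-0.73 ± 0.13) and miR-190-5p (-0.37 ± 0.11). Without young libraries 1 and 2 miR-932-5p stood at -0.47 and was not called. The call of miR-190-5p was lost without old library 2 or young library 2 (-0.35 to -0.31). The neuronal miR-124-3p also fell (-1.28 ± 0.48, adjusted p = 0.0420), but it was at 502, 361, 96.1 and 70.0 CPM in the young and from 75.1 to 157 (median 119.9) in the old libraries. Young libraries 3 and 4 lay below the old median, and without libraries 1 and 2 its value was 0.55 (adjusted p = 0.097). It was also lost without old library 2, 3, 4 or 7 or young library 1 or 2, at -1.29 to -0.56. The rises of the list were miR-929-5p, in an intron of the complexin gene cpx (1.13 ± 0.23), and miR-210-3p (0.94 ± 0.17). Under RLE scaling the list gave 2 rises and 6 falls, without young libraries 1 and 2 it gave 3 and 6, and without young libraries 3 and 4 it gave 2 and 9.

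Further falls without overlap were of low-abundance microRNAs. miR-990-5p went from 448, 277, 157 and 144 CPM in the young libraries to 52.1 to 84.5 (median 62.4) in the old, a change of -2.09 ± 0.33 (adjusted p = 0.000418). miR-981-3p was at 1404, 849, 299 and 362 CPM in the young and from 178 to 282 (median 193) in the old, a change of -1.91 ± 0.37 that was -0.58 without young libraries 1 and 2. At much higher levels, miR-31a-5p was at 36237, 22744, 9397 and 14103 CPM in the young and from 5943 to 7951 (median 7169) in the old, a change of -1.67 ± 0.31 (adjusted p = 0.000755). These 3 were called in all 29 fits run, and for miR-31a-5p the value without young libraries 1 and 2 was -0.68. miR-315-5p, an activator of Wingless signalling in flies, changed by -1.50 ± 0.33 and overlapped, its young libraries at 1211, 905, 314 and 436 CPM and the old ones from 203 to 317 (median 288). miR-307a-3p, in an intron of the matrix protease gene Mmp2, changed by -1.47 ± 0.37, and by -0.33 without young libraries 1 and 2 (adjusted p = 0.287). miR-9a-3p, whose hairpin also makes the sensory organ regulator miR-9a-5p, fell by 1.62 (SE 0.52, adjusted p = 0.0222) with young libraries at 6266, 2925, 577 and 626 CPM and old ones from 841 to 1120.4 (median 951). Young libraries 3 and 4 were below every old library, and without libraries 1 and 2 it rose by 0.72 (adjusted p = 0.000131). Its call was lost without young library 1 (-0.51) or 2 (-1.32).

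**Figure D2:**
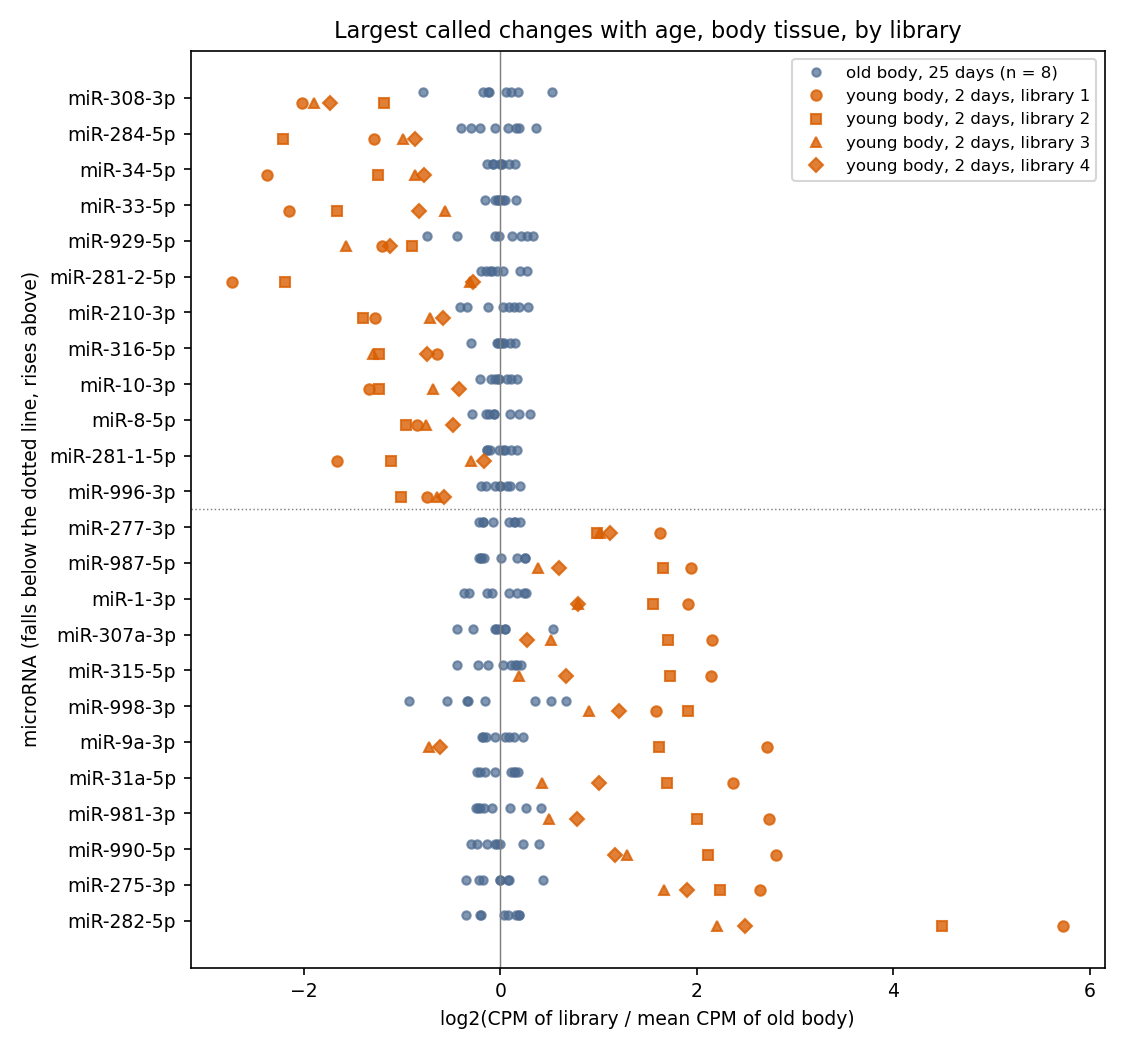
Level of the 12 largest called rises and 12 largest called falls (mean of at least 100 CPM) in each library, as log2 of its CPM over the mean of the old libraries, with 1 point per library. Old libraries (blue) stay near 0, while young libraries (orange, 1 symbol each) spread widely, and those of miR-9a-3p lie on both sides.

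The largest named rise was of miR-308-3p, in an intron of the ribosomal protein gene RpS23. It stood at 37.4, 66.6, 40.5 and 45.3 CPM in the young and from 87.6 to 217 (median 148) in the old libraries, without overlap, and its log2 fold change was 1.62 ± 0.26 (adjusted p = 0.000418). It was among the scarcer microRNAs tested. miR-284-5p, in an exon of the octopamine receptor gene Octbeta2R and known to act on glutamate receptors at synapses, was at 763, 399.6, 936 and 1017 CPM in the young and from 1402 to 2384 (median 1874) in the old libraries, and changed by 1.23 ± 0.20 (adjusted p = 0.000418). miR-34-5p, which in the fly brain protects against age-related decline, was at 1638, 3579.7, 4640.3 and 4952 CPM in the young and from 7740.0 to 9384 (median 8514) in the old, a change of 1.19 ± 0.20 (adjusted p = 0.000418). Every old library was above every young one for these microRNAs.

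Of 11 tested microRNAs known from gut, fat body and metabolism 7 rose and 2 fell, with a median of 0.52, against 19.1% rising and 29.6% falling among all tested. With upper-quartile factors only 2 of them rose, and 2 fell. miR-8-3p, which promotes insulin signalling in the fat body, was at 67624, 67920.2, 96969.9 and 104390.1 CPM in the young and from 127833 to 140063 (median 135509) in the old libraries, and rose by 0.66 ± 0.10 (adjusted p = 0.000410). Hosted by SREBP, the gene of a regulator of lipid synthesis, miR-33-5p was at 3304, 4645, 9938 and 8269.7 CPM in the young and from 13237 to 16386 (median 14577) in the old, and rose by 1.17 ± 0.21 (adjusted p = 0.000658). miR-281-2-5p, the most abundant product of the mir-281 hairpins, was at 3565, 5195, 19108 and 19449.6 CPM in the young and from 20583 to 28490.3 (median 22758) in the old, and changed by 1.05 ± 0.35 (adjusted p = 0.0253). Its groups did not overlap, but young libraries 3 and 4 lay just below the old ones, and its value was 0.36 without libraries 1 and 2 and 2.32 without libraries 3 and 4. It was lost without old library 1, 2, 4, 5, 6 or 8 or young library 1 or 2, at 0.71 to 0.97. Other rises were of miR-14-3p, a regulator of fat metabolism and cell survival (0.52 ± 0.20), miR-281-1-5p (0.70 ± 0.19) and miR-281-3p (0.53 ± 0.12). The mir-281 products come from neighbouring hairpins and may share reads, so they are not separate members of the list. The last rise was of miR-263a-5p (0.34), whose call failed in 11 of the fits that left out 1 library. The miR-14-3p call failed without any 1 of old libraries 1, 3, 4, 6 and 8 and young library 4 (0.36 to 0.49), that of miR-281-1-5p without old library 1, 2, 5 or 8 or young library 2 (0.50 to 0.65) and that of miR-281-3p without young library 2 (0.44). miR-14-3p was not called without young libraries 3 and 4 either (0.31). The falls of the list were miR-275-3p and miR-277-3p, given above.

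Of 10 circadian and sleep microRNAs 3 rose and 5 fell, with a median of -0.22, against 19.1% rising and 29.6% falling among all tested. Without young libraries 1 and 2 the list gave 2 rises and 2 falls (median -0.03), and under RLE scaling 3 of each. The sister microRNAs miR-279-3p and miR-996-3p, which share a seed and act in circadian and sensory neurons, differed. miR-996-3p was at 1046, 866, 1118 and 1177 CPM in the young and from 1525 to 2008 (median 1746) in the old libraries and rose by 0.69 ± 0.11 (adjusted p = 0.000418), whereas miR-279-3p stood at 0.03 ± 0.12 (adjusted p = 0.818). In the sensory organ list 2 of 8 rose and 2 fell (median -0.18), and 1 rose and 3 fell without young libraries 1 and 2, or 3 and 3 without young libraries 3 and 4. The falls were miR-263b-5p (-1.25 ± 0.28) and miR-7-5p (-0.86 ± 0.31), a photoreceptor regulator, and the latter was lost without old library 2 or 7 or young library 1 or 2, at -0.78 to -0.63, and without both young libraries 1 and 2 (-0.27). miR-263a-5p, which protects sensory bristles from cell death, rose by 0.34 ± 0.12 and was lost without any single library other than young library 3 (0.19 to 0.35), and without young libraries 1 and 2 together (0.14). Of 3 tested microRNAs tied to the homeotic genes, miR-10-3p rose and miR-993-3p fell (-0.47 ± 0.12), with a median of -0.12, or 0.40 without young libraries 1 and 2, where 2 rose and 1 fell. Of 3 let-7 complex microRNAs, which time development, let-7-5p fell (-0.63 ± 0.22) and miR-100-5p and miR-125-5p were at -0.63 ± 0.28 and -0.24 ± 0.16. The fall of let-7-5p was lost without old library 7 or young library 1 or 2, at -0.59 to -0.27, and no let-7 complex member was called without young libraries 1 and 2, where let-7-5p stood at -0.07. The median of the complex was -0.63. Among 6 microRNAs tied to lifespan, which include the complex, 2 rose (miR-34-5p and miR-14-3p) and 2 fell (miR-277-3p and let-7-5p), with a median of -0.43, or -0.03 without young libraries 1 and 2, where 2 rose and 1 fell.

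Among 6 tested immune microRNAs (median -0.22) 2 rose (miR-8-3p and miR-34-5p) and 2 fell, let-7-5p and bantam-3p, the growth and survival microRNA (-0.46 ± 0.18, adjusted p = 0.0434). The bantam-3p call was lost without old library 2, 3 or 7 or young library 1 or 2, at -0.48 to -0.26, and without both young libraries 1 and 2 (-0.03). The immune list then gave 3 rises and 0 falls with a median of 0.27, where over all libraries its rises and falls stood against 19.1% and 29.6% of all tested. RLE scaling left 1 of its falls. miR-958-3p, a Toll pathway regulator, stood at -0.18 ± 0.28 over all libraries, at 0.71 without young libraries 1 and 2 and at -0.66 without young libraries 3 and 4, each called. In the K box family (median 0.10), whose seed is known to target pro-apoptotic genes, 2 of 7 rose (miR-308-3p and miR-2b-3p, 0.40 ± 0.12) and miR-2a-3p fell (-1.08 ± 0.31). The call of miR-2b-3p was lost without old library 1 or 4 (0.25 to 0.32), and miR-2a-3p stood at -0.05 without young libraries 1 and 2. That fit gave 4 rises and 0 falls in the family (median 0.30), against 35 rises and 30 falls of 120 tested. The fit without young libraries 3 and 4 gave 3 and 1 (median -0.03), against 31 rises and 49 falls of 124. Over all libraries 19.1% of all tested rose and 29.6% fell. Of the 6 miR-310 and miR-92 family members none was called over all libraries (median 0.63). Without young libraries 3 and 4 all 6 rose, and without young libraries 1 and 2 miR-312-3p fell and none rose. In all, 10 microRNAs, among them miR-10-5p, miR-312-3p, miR-318-3p, miR-958-3p and miR-9a-3p, were called in opposite directions by these fits, which share all 8 old libraries. The young pairs are those on which miR-318-3p and miR-312-3p were seen to lie below and above the old libraries. Their opposite signs were therefore given by the split. Both fits called more microRNAs than the fit of all libraries, though each kept only a pair of young ones. Their calls describe these pairs and are not separate tests of age.

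The arms of a hairpin come from 1 precursor, so their ratio was compared between ages. Both arms could be tested for 25 hairpins, and the arms of 11 (44.0%) changed unequally (edgeR's diffSpliceDGE, Benjamini-Hochberg adjustment), which treats the arms of a library as independent. An exact two-sided permutation test of the arm ratio over libraries, added after the data were seen, called 8, of which 7 were among the 11. In 2 hairpins the arms were called in opposite directions. In mir-34 the 5p arm rose (1.19 ± 0.20) while the 3p arm fell (-0.49 ± 0.15, adjusted p = 0.0178). The 3p arm made up 68.9%, 45.5%, 36.2% and 43.3% of the hairpin's counts in young libraries 1 to 4 and from 17.8% to 24.8% in the old ones (median 22.1%). The groups did not overlap, and the arms differed with an adjusted p of 6.2e-07, or 0.0202 by the exact test, whose smallest unadjusted p here is 0.00404. In mir-284 the 5p arm rose (1.23 ± 0.20) and the 3p arm fell (-0.48 ± 0.15), a call lost without young library 1 (-0.35) or young libraries 1 and 2 (-0.37). The 3p share was 36.4%, 44.6%, 26.0% and 29.4% in the young and from 9.59% to 15.6% in the old libraries (median 13.6%), again without overlap (adjusted p = 4.8e-07, exact 0.0202).

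The 3p arm of mir-275 took 98.7%, 98.2%, 97.5% and 96.0% of its hairpin's counts in the young and from 90.7% to 93.7% in the old libraries (median 92.0%). The 5p arm, at 20 to 73 counts per library, did not share the fall of the 3p arm (-0.26 ± 0.17 against -2.25 ± 0.21, adjusted p = 1.2e-07, exact 0.0202). For mir-10, a hairpin of the homeotic Antennapedia complex, the 3p arm rose (0.86 ± 0.14) and the abundant 5p arm stood at -0.12 ± 0.20. Its 3p share was 2.08%, 2.44%, 4.90% and 6.74% in the young and from 6.23% to 7.55% in the old libraries. Young library 4 overlapped the old ones, the exact test gave an adjusted p of 0.0786, and the call was lost without young libraries 1 and 2 (adjusted p = 0.235). Both arms of mir-277 fell, the 5p arm, at 2 to 38 counts per library, by more (-2.42 ± 0.29), with an adjusted p of 0.0379 in the exact test. Bantam, mir-14 and mir-11 were also called by both tests, on 3p shares that moved by only a few percentage points or less. The mir-11 call was lost without old library 2 (adjusted p = 0.0601) or young library 2 (0.0510). It was also lost with old libraries of code O alone (0.377) or code R alone (0.127), and without the ovarian and miR-310 family microRNAs (0.0577). Neither arm of mir-11 was called on its own. The mir-14 call was lost with code R alone (0.0651). Of the 3 called by the model alone besides mir-10, mir-308 was lost without young library 3 (0.0546), mir-1012 without old library 5 or young library 3 or 4 (0.0592 to 0.171) and mir-998 without old library 5 or 7 or young library 2 (0.0611 to 0.123). Without young libraries 3 and 4 mir-308 (adjusted p = 0.217) and mir-1012 (0.770) were not called, nor was mir-998 without young libraries 1 and 2 (0.237). In mir-8 the arms rose together, by 0.71 ± 0.12 and 0.66 ± 0.10, and were not called different (adjusted p = 0.732).

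**Figure D3:**
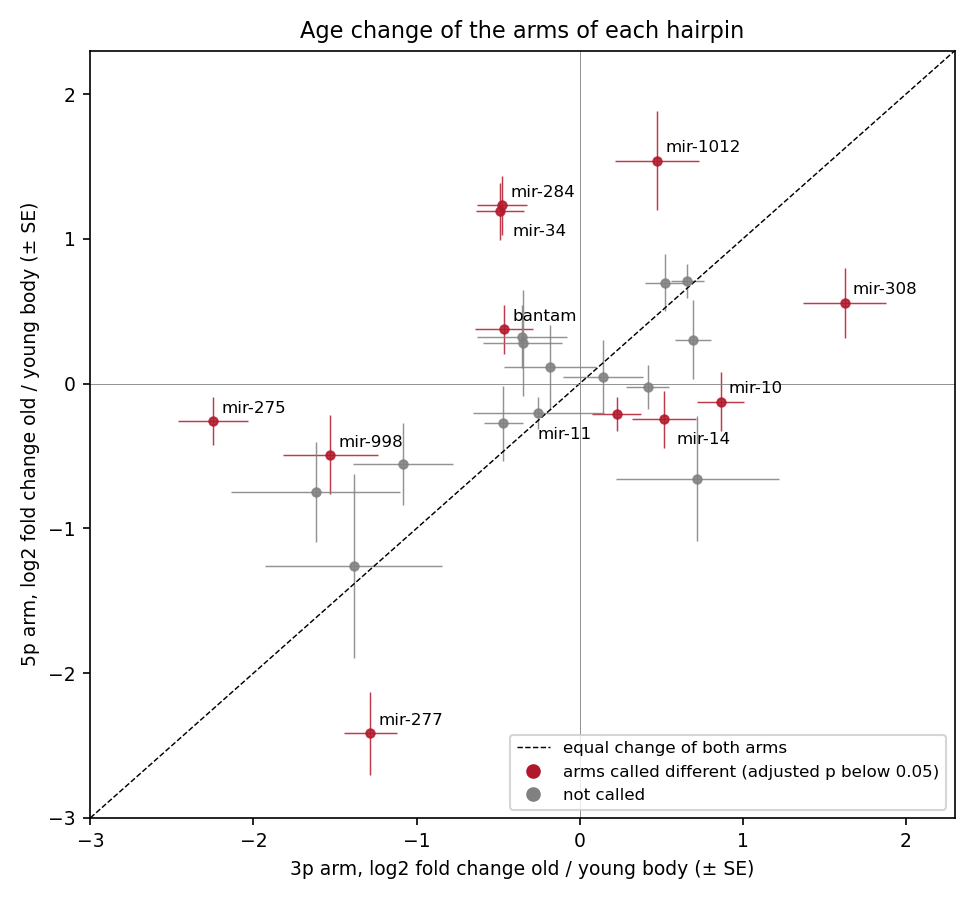
Log2 fold change (old over young, ± SE) of the 5p arm against that of the 3p arm for 25 hairpins, 1 point per hairpin, with called differences in red. mir-34 and mir-284 lie at the upper left, with the 5p arm up and the 3p arm down, and mir-8 lies near the dashed line of equal change.

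**Figure D4:**
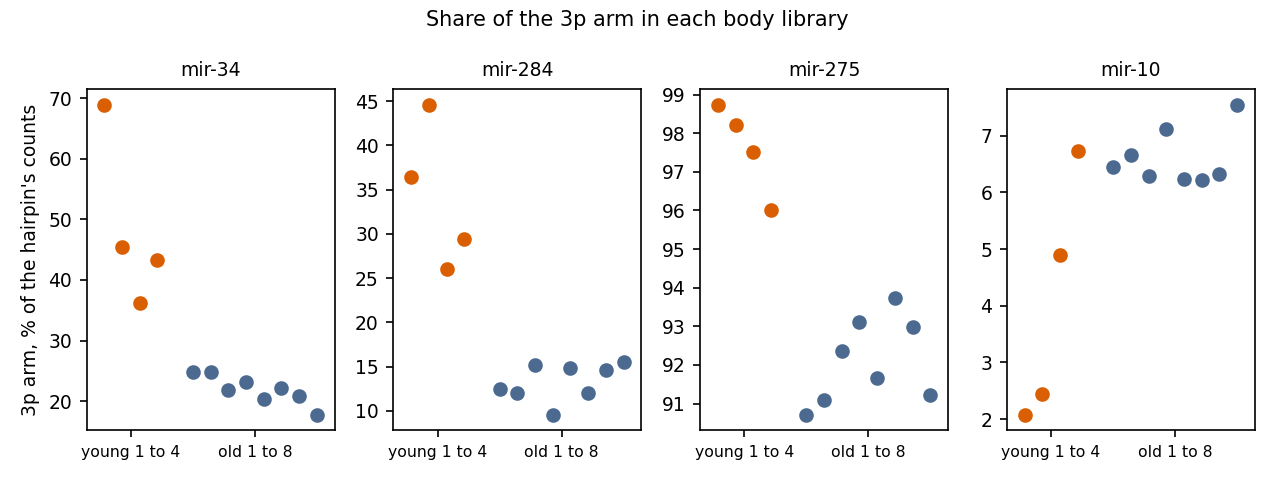
Share of the 3p arm in its hairpin's counts (%), 1 point per library, young in orange and old in blue, with a separate axis for each hairpin that does not start at 0. The ages do not overlap for mir-34, mir-284 and mir-275, and young library 4 lies among the old libraries for mir-10.

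Hairpins within 10 kb on a strand were compared in the same way. Of 13 such clusters with 2 or more tested members, the leading products of 5 (38.5%) changed unequally. On chromosome 2L mir-275 (7425795 to 7425892, dm6) lies next to mir-305 (7425972 to 7426044), known in gut stem cells, and miR-275-3p fell while miR-305-3p rose by 0.42 ± 0.13 (cluster adjusted p = 1.7e-09). The other arm, miR-305-5p, at 739 to 1462 counts per library, stood at -0.02 ± 0.15 and was not called (adjusted p = 0.912). The rise of miR-305-3p was lost without old library 1, 2, 4, 5, 6 or 8 or young library 1 or 2, at 0.24 to 0.42, and without young libraries 1 and 2 together (0.17), and the cluster difference held in all 24 settings run. On 3R mir-317, mir-277 and mir-34 lie from 10091126 to 10101034. miR-317-3p stood at -0.26 ± 0.20, miR-277-3p fell and miR-34-5p rose (cluster adjusted p = 6.6e-09). mir-277 and mir-34 are annotated in exons of 1 noncoding RNA, and no setting removed the cluster difference. In an intron of E2f1, a cell cycle factor gene, miR-998-3p fell (-1.53 ± 0.29) from 358, 449.5, 223 and 276 CPM in the young libraries to 62.8 to 190.2 (median 101) in the old, while miR-11-3p stood at 0.23 ± 0.15 (cluster adjusted p = 1.1e-06). The mir-279 and mir-996 cluster was called (adjusted p = 0.000154). The spi intron pair of miR-2a-3p and miR-2b-2-5p passed by little (adjusted p = 0.0457) and was lost in 9 settings, among them without old library 3, 7 or 8 or young library 1 or 2 (at most 0.0997). Only the 5p arm stands for mir-2b-2 here, because miR-2b-3p was kept under a hairpin outside the cluster. A 3p arm is thus set against a 5p arm in this pair. How reads that match several miR-2 members were counted is not known here, so these values are uncertain to that extent.

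**Figure D5:**
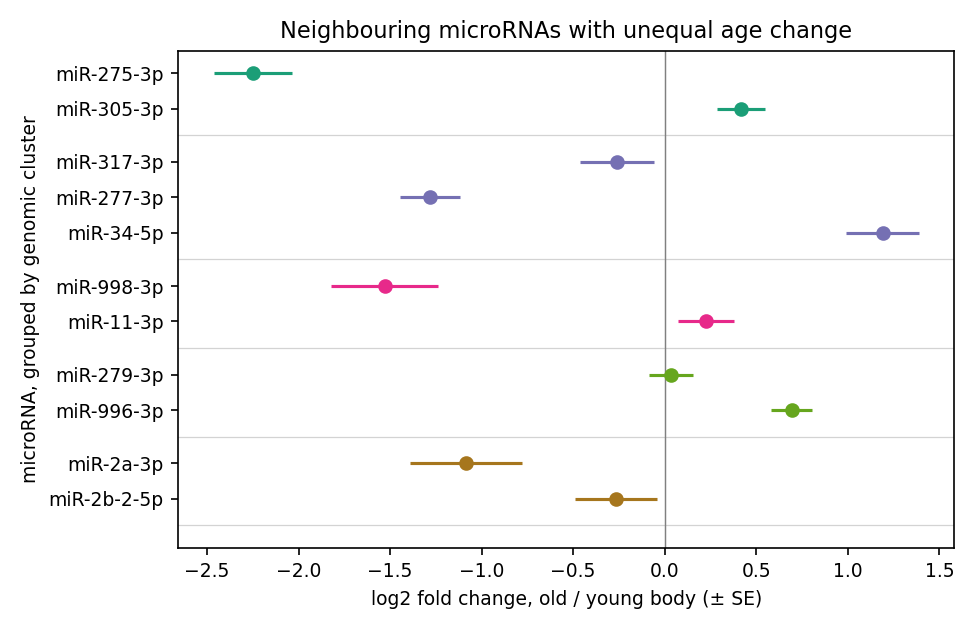
Log2 fold change (old over young, ± SE) of the leading product of each hairpin in the 5 clusters called, 1 colour per cluster. mir-2b-2 is shown by its 5p arm alone, as miR-2b-3p was kept under another hairpin. miR-275-3p and miR-305-3p, and miR-277-3p and miR-34-5p, lie on opposite sides of 0.

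By genomic position, 12 of the 22 tested microRNAs on chromosome 3L fell and 2 rose (median log2 fold change -0.58), on 2R 5 of 28 fell and 8 rose (median 0.09), and on 2L 7 of 21 fell and 3 rose (median -0.27). On 3R 9 of 35 fell and 7 rose (median -0.12), and on X 1 of 9 fell and 2 rose (median 0.12), against 29.6% falling and 19.1% rising among all tested. Among 36 microRNAs in introns of protein-coding genes 7 rose and 10 fell, and among 49 in exons of noncoding RNAs 11 rose and 18 fell. Whether these shares differ was not tested.

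No difference between the ages was called in 5 measures of evenness, minor arm share and number of microRNAs detected. These measures do not ask which microRNAs make up a library. miR-956-3p was the most abundant microRNA, with 21.5% ± 3.44 of counts in young and 22.3% ± 1.65 in old libraries. The 10 most abundant microRNAs together took 72.6% ± 3.87 of counts in young and 73.7% ± 1.15 in old libraries, and the minor arms of all hairpins 2.57% ± 0.393 and 2.76% ± 0.192. At an equal depth of 136692 counts, 192 ± 5.63 microRNAs were detected in young and 191 ± 5.05 in old libraries. Exact two-sided permutation tests gave an adjusted p of 0.703 for each of the 5 measures compared. The libraries of the young group spread more than those of the old, with a larger SD of log2(CPM + 1) for 95 of 115 microRNAs (median SD 0.481 against 0.212).

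The age change of body was also set against that of hemolymph in a fit of all 24 libraries, and the 2 changes differed for 18 of 124 microRNAs (14.5%). The clearest was miR-275-3p, which stood at -2.29 in body and 0.81 in hemolymph in that fit, a difference of 3.10 ± 0.34 (adjusted p = 2.9e-07). miR-996-3p rose in body and fell in hemolymph, at 0.71 and -0.72 (difference -1.43 ± 0.23, adjusted p = 0.00012). RNA of the compartments was extracted with different kits, and the age changes are within a kit.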

How the data were processed

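Small RNA was sequenced from body tissue and hemolymph. Per the labels' protocols, body RNA came from a miRNeasy kit, libraries from TruSeq small RNA reagents, and reads were single-end. The deposited table gives whole-number counts with no normalization, and RPM values, which differ by at most 0.005 from the deposited counts rescaled by column total. Bowtie 1.0, edgeR and dm6 are named in the submitters' processing notes. Not given in the sources used here are the microRNA release, the trimming and how multiply matching reads were handled. In every library miR-276a-5p had the same count as miR-276b-5p, so reads may be shared among near-identical members, and values of the families of miR-310, miR-281, miR-276 and miR-2 are uncertain. Counting does not use molecular identifiers.

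Of 476 rows, 10 repeats of a mature name were left out, keeping the row with the highest total, which gave 466. Only counts were tested, with R 4.3.3, edgeR 4.0.16 (filterByExpr with a minimum count of 10, TMM scaling, quasi-likelihood F test, Benjamini-Hochberg adjustment, called at 0.05) on the 8 old and 4 young body libraries without covariates. A change is relative to the bulk of the microRNAs. Standard errors are the absolute log2 fold change over the square root of F. Arms and clusters were tested with diffSpliceDGE, composition with exact permutation tests (scipy 1.17.1, Python 3.11.15) and with 20 thinning draws. The scripts were tested on simulated data. Hairpin positions (253 of 255 matched by name) are from an Ensembl annotation of dm6. Named were the 12 largest rises and 12 largest falls called and averaging 100 CPM or more, the 10 most abundant microRNAs, the tested members of the 13 lists, and up to 6 called hairpins and clusters with the smallest adjusted p. Any other microRNA given was picked with its values in view. The members and lists were chosen with earlier results of these data known. Alternatives were scaling by RLE, by upper quartile or by library size, all microRNAs unfiltered, those averaging 100 CPM or more, summed rows, DESeq2 1.42.0, robust dispersion, limma 3.58.1 weighted by sample, a replicate block, each letter code alone, all 24 libraries, leaving out ovarian and miR-310 family microRNAs, each library, and pairs of young libraries. Mature sequences were not used here.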

Additional observations from a re-analysis of the deposited data

Results flagged for a closer look

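Among 164 groups of 4 to 10 libraries examined for a library far from its group, 4 were found, where chance at 1 in 20 gives 8.2. miR-316-5p was lowest in old library 4 at 861 CPM, against 1030 to 1169 in the other old libraries. miR-307a-3p was highest in old library 7 at 124 CPM, against 62.8 to 88.0. Young library 1 was highest for miR-276b-3p at 6255 CPM, against 3881 to 4182. Young library 4 was highest for miR-275-5p at 300.5 CPM, against 155 to 166.

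The age change differed between hemolymph and body for 17 named microRNAs (edgeR's quasi-likelihood test of the difference, 24 libraries, values as hemolymph minus body on the log2 scale). The difference was above 0 for 7 of them. It was 3.10 for miR-275-3p, 2.87 for miR-957-3p, 1.22 for miR-281-1-5p and 3.75 for miR-989-3p, and below 0 for miR-996-3p (-1.43) and miR-2b-3p (-1.37). These 6 were kept whichever library was left out. The other 11 were lost without at least 1 library. miR-317-3p (1.59) was lost without young body library 2 (1.09), and miR-10-5p (1.43) without young body library 1 (1.16) or 2 (1.24). miR-281-3p (0.96) was lost without young body library 2 or old hemolymph library 1, 3 or 8 (0.87 to 0.98). The other 8 were each lost without any 1 of 7 to 14 libraries, drawn from old body libraries 1 to 4 and 6 to 8, young body libraries 2 to 4, old hemolymph library 4 and young hemolymph libraries 1 to 4, with adjusted p up to 0.317. They were miR-279-3p (-0.99, and -0.71 to -0.62 where lost), miR-10-3p (-1.52, -1.25 to -1.06), miR-9c-5p (-1.46, -1.23 to -0.87) and miR-316-5p (-1.48, -1.29 to -1.09). The rest were miR-284-5p (-0.94, -0.82 to -0.47), miR-14-3p (-1.07, -0.82 to -0.72), miR-9b-5p (-1.12, -0.96 to -0.71) and miR-2c-3p (-1.40, -1.18 to -1.01). For miR-284-5p RLE scaling also ended the call (adjusted p = 0.111). In each of the 8 the difference shrank whichever of these libraries was left out, so the loss is not particular to 1 library. Whether a shift in scaling lies behind it was not tested.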

How the results depend on the processing

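Of the 22 rises and 34 falls, 13 microRNAs were called in the same direction in all 29 fits (3 rises, 10 falls). Upper-quartile scaling gave 13 rises, old libraries of code O alone 9 rises and 19 falls, code R alone 12 and 16, limma with sample weights 14 falls (21 rises), and leaving out young libraries 1 and 2 gave 35 rises. Leaving out 1 library gave 14 to 25 rises and 25 to 38 falls. The 11 hairpins with unequal arms became 7 at a mean of at least 100 CPM, 7 with code R alone and 19 without young libraries 3 and 4 (9 to 14 without 1 library). The 5 clusters became 12 without young libraries 3 and 4 (4 to 6 without 1 library). The 18 differences between compartments became 28 under RLE scaling (13 to 27 without 1 library). The differences in the 5 composition measures stayed uncalled. Without young libraries 1 and 2 the values of miR-9a-3p (0.72), miR-10-5p (0.40), miR-124-3p (0.55), miR-1000-5p (0.42), miR-305-5p (0.29) and miR-958-3p (0.71) turned positive, and without young libraries 3 and 4 so did miR-318-3p (2.52), miR-312-3p (2.37) and miR-9c-5p (0.46). In these the value was called in at least 1 of the fits compared. A further 94 values changed sign with neither value called, 15 of them without young libraries 1 and 2 and 4 without young libraries 3 and 4. The cause was not tested. Over all named microRNAs and settings, 1790 values kept sign and call, 198 lost the call and 51 gained it.

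Same-numbered young and old libraries did not deviate together (r of 0.23, -0.08, -0.29 and 0.22), so the numbers were not taken to pair them. With the replicate block, on code O libraries, 5 microRNAs rose and 15 fell, and 8 hairpins and 3 clusters were called, without the mir-279 and mir-996 cluster. The low-count filter left 351 of 466 names untested, and 167 of those had no count in any body library.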

Other observations

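Within the old group, libraries of code R were compared with those of code O, and 15 of 108 microRNAs differed (13.9%, edgeR's quasi-likelihood test with Benjamini-Hochberg adjustment, 4 libraries each). miR-310-3p was lower in the R libraries (-0.85 ± 0.13, adjusted p = 0.00034) and miR-31a-5p higher (0.43 ± 0.07, adjusted p = 0.0012). Of the 15, 4 were also called for age, where 48.7% of all microRNAs tested for age were called. For miR-31a-5p the age change was -1.82 with code O alone and -1.46 with code R alone.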
